A study of Mus musculus with 201 samples.

Results

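The neuropeptide precursors described here are 10 genes, Penk, Pdyn, Pnoc, Tac1, Tac2, Crh, Adcyap1, Nts, Vgf and Scg2, measured in mouse hippocampus by 12 probe sets out of 45037 on the array. They were chosen by name: every probe set annotated to 1 of these symbols was kept, so that 10 of 18193 annotated genes are covered, Tac1 and Adcyap1 by 2 probe sets each and the other genes by 1. None of the 12 probe sets lists a further gene.

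The study profiled whole hippocampi of 100 mouse strains on 201 Affymetrix M430 2.0 arrays. Each array held RNA pooled from 1 to 4 mice of 1 sex and strain, usually 1 female and 1 male pool per strain, with a mean pool age of 41 to 196 days. The BXD panel, recombinant inbred strains bred from C57BL/6J and DBA/2J, gave 68 strains on 134 arrays of 67 female pools, 66 male pools and 1 pool of both sexes, at a median age of 61 days; some of its newer lines were not yet fully inbred. The CXB panel, bred from C57BL/6ByJ and BALB/cByJ, gave 13 strains on 27 arrays at a median of 54 days. The 13 classical inbred strains (27 arrays, median 65 days) were the panel parents C57BL/6J, DBA/2J, C57BL/6ByJ and BALB/cByJ together with 129S1/SvImJ, A/J, AKR/J, BALB/cJ, C3H/HeJ, KK/HIJ, LG/J, NOD/LtJ and NZO/HlLtJ. The 4 wild-derived inbred strains were CAST/EiJ, PWD/PhJ, PWK/PhJ and WSB/EiJ (7 arrays, median 64 days, pools of 1 to 3 mice). The reciprocal hybrids B6D2F1 and D2B6F1 gave 6 arrays. No group was treated. The labels do not say that pools of a strain came from separate litters, so the p-values below measure the spread between pooled samples.

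Neuropeptides are made as larger precursor proteins, which are cut by proprotein convertases, trimmed and often amidated inside dense-core vesicles, and are released to act on G protein-coupled receptors. In the hippocampus, Penk and Pdyn, which encode enkephalins and dynorphins, are best known from the granule cells and mossy fibres of the dentate gyrus, while the messages of Tac1, Tac2, Crh, Pnoc and Nts are known mostly from scattered interneurons or small groups of cells. Vgf and Scg2 encode granin-family proteins of the same vesicles and are found in many principal neurons. Because a hippocampal pool mixes all of these cells, fewer cells of a type and less RNA per cell cannot be told apart in any value below. Probe sequences were not at hand, so sequence differences between strains under a probe set were not examined either.

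The tissue label was checked against marker genes. All 10 markers of pyramidal neurons and 9 of 10 of dentate granule neurons had a mean level of 8 or more, against 41.9% of all probe sets. Each marker was taken at its probe set of highest mean, while that share covers every probe set, so the comparison is a rough one. Of the neighbouring regions, 2 of 8 striatal markers, 2 of 10 of hypothalamus and septum, 6 of 10 of thalamus and 6 of 9 of choroid plexus reached that level. Among the precursors, Pnoc (7.76), Tac2 (7.79), Crh (7.73), both Adcyap1 probe sets (7.98 and 7.45) and 1 Tac1 probe set (7.54) lay below it. The other precursor probe sets had means of 8 or more. The share of probe sets called present per array ran from 43.3% to 55.3%, and the ratio of 3' to 5' signal of beta-actin, a measure of RNA integrity, from 0.90 to 4.65. For 7 arrays the header of the deposited table and the sample label disagreed on strain, sex or batch number. They include both BXD14 arrays, the male BXD13 array and 1 male PWD/PhJ array.

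To show the regulatory sequence next to the start of the genes whose levels the results turn on, the 250 bases upstream of the RefSeq start (mouse build GRCm38.p6) are printed 5' to 3' on the gene's strand for Nts and Tac2, which differed among BXD strains, for Tac1, the other tachykinin precursor, and for Scg2, whose window holds the full element described next. Capitals mark the core of the cyclic AMP response element, TGACG on either strand (printed CGTCA on the other strand), and the full element TGACGTCA. The windows lie at chr10:102490419-102490668 (minus strand, Nts), chr10:127724228-127724477 (plus strand, Tac2), chr6:7554811-7555060 (plus strand, Tac1) and chr1:79440027-79440276 (minus strand, Scg2).
Nts: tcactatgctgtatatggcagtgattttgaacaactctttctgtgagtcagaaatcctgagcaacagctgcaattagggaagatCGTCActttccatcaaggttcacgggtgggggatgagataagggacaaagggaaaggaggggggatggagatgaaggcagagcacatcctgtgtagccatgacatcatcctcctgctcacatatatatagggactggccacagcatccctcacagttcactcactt
Tac2: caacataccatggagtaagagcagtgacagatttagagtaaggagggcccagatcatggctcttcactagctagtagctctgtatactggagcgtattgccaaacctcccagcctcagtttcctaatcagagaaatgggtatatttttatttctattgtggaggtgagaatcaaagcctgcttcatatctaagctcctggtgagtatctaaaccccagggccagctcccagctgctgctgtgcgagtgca
Tac1: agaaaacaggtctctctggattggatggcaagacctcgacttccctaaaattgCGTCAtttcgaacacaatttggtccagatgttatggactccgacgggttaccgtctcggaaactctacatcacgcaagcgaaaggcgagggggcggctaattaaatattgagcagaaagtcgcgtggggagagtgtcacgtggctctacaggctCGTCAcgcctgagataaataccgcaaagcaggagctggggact
Scg2: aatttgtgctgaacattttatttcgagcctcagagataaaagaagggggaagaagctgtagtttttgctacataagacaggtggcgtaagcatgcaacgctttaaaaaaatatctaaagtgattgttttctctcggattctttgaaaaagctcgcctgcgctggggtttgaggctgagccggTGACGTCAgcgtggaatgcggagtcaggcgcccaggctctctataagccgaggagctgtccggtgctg
RefSeq sequences matched 6 of the 10 genes. The core was present in 4 of these 6, Tac1, Adcyap1, Nts and Scg2, and in 17.8% of 32851 windows of the same length from all genes. The full element, which contains the core on each strand, was present in the Scg2 window and in 1.55% of all windows; in Scg2 its cores began 68 and 65 bases before the start. The Nts core began 166 bases before the start and the Tac1 cores 197 and 43 bases before it, and the Tac2 and Pdyn windows held none. These matches describe the letters of the windows, and binding was not measured.

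Levels are given as PDNN values, the deposited summary of each probe set per array, on a logarithm-like scale; the labels used here state no base for it. Differences are therefore given in PDNN units and not as folds. Apart from the rough mark of 8 used above, levels of different probe sets are not ranked against each other. On this scale the mean of an array lay between 8.06 and 8.10, and its SD between 0.630 and 0.799. A strain value below is the level of a strain after sex and the batch number of the labels were fitted in limma.

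Before the comparisons, 3 arrays need naming, because Penk and Tac1 stood apart in them. In the female CXB6 pool Penk was 10.21 and Tac1 9.55, in the male AKR/J pool 10.22 and 9.48, and in the female BXD13 pool 10.00 and 9.37. The other 198 arrays ran from 8.10 to 9.61 for Penk (median 8.60) and from 8.06 to 9.06 for Tac1 (median 8.47), so neither gene overlapped. The same 3 arrays were the highest on a list of 8 striatal markers, with mean standardised levels of 5.21, 4.08 and 3.99 against -0.961 to 1.11 in the rest. Of the defining striatal markers, the receptor Gpr6 was at 8.25 to 8.52 in the 3 arrays and at 7.24 to 7.73 in the others, and the dopamine receptor Drd1 at 8.48 to 8.60 against at most 8.23. Rgs9 and Ido1 did not overlap either, and 17 of the other arrays reached the lowest of the 3 for Ppp1r1b. The second pool of each strain was less extreme: male CXB6 had Penk at 8.37 and Tac1 at 8.50, female AKR/J 8.42 and 8.40, and male BXD13 9.47 and 8.60. Scg2 was also high in the 3 arrays, at 10.30 to 10.36, but 9 other arrays reached that level. The part of striatal tissue in these Penk and Tac1 values was not tested. Where the 3 arrays set a highest or lowest level or change a call, the value without them is given as well.

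**Figure D1:**
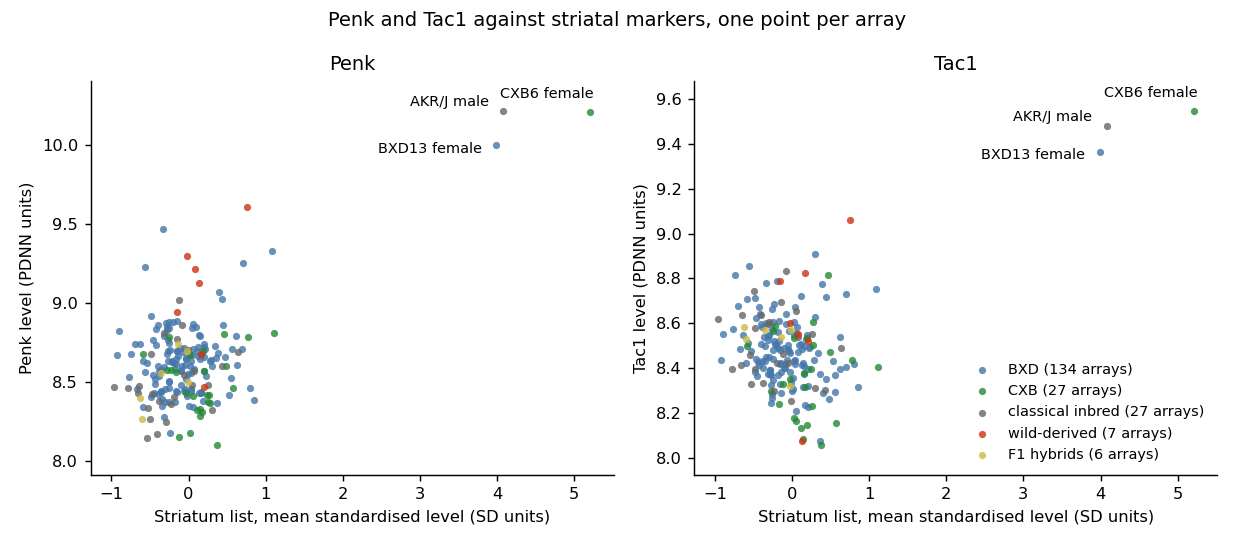
Level of Penk (left) and Tac1 (right) in PDNN units on the vertical axis against the mean standardised level of 8 striatal markers on the horizontal axis, 1 point per array, coloured by panel. The female CXB6, male AKR/J and female BXD13 pools lie at 3.99 to 5.21 on the striatal list, apart from all other arrays, and hold the highest Penk and Tac1 levels.

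Among the opioid precursors, Penk had strain values from 8.33 in BXD20 to 9.75 in BXD13 in the BXD panel, with a median of 8.63. CXB strains ran from 8.19 in CXB9 to 9.21 in CXB6 (median 8.48), classical strains from 8.28 in A/J to 9.38 in AKR/J (median 8.58) and wild-derived strains from 8.63 in WSB/EiJ to 9.39 in PWD/PhJ (median 9.20). The highest strain of each of the first 3 panels is thus one of the 3 with a striatum-high array; without those arrays the highest values were 9.45 in BXD13, 8.67 in CXB2 and 8.82 in 129S1/SvImJ. Pdyn ran from 7.95 in BALB/cJ to 8.35 in CXB6 over all 100 strains (median 8.15), and without the striatum-high arrays its highest value was 8.30 in BXD74. Pnoc, the precursor of nociceptin, ran from 7.62 in BXD11 to 7.93 in CXB3 (median 7.75).

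Of the tachykinin precursors, Tac1, which encodes substance P and neurokinin A, had strain values from 8.11 in CAST/EiJ to 8.96 in CXB6 (median 8.49) by its first probe set (the one of higher mean). Its second probe set ran from 7.35 in 129S1/SvImJ to 7.74 in CXB8 (median 7.54) and did not show the 3 striatum-high arrays: 98 other arrays reached the lowest of them. Without those arrays the first probe set was at 8.51 in CXB6, and BXD51 was highest at 8.86. Tac2, the precursor of neurokinin B, ran from 7.42 in PWK/PhJ to 8.13 in AKR/J (median 7.79). Without the striatum-high arrays AKR/J was at 7.89 and BXD98 was highest at 8.11.

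Crh, which encodes corticotropin-releasing hormone, ran from 7.57 in BXD50 to 8.41 in CAST/EiJ (median 7.73), and no other strain was above 7.96. Adcyap1, the precursor of PACAP, ran from 7.80 in BALB/cByJ to 8.33 in CAST/EiJ (median 7.98) by its first probe set, again the one of higher mean, and from 7.32 in AKR/J to 7.87 in CAST/EiJ (median 7.44) by the second. Both Adcyap1 probe sets and Crh were thus highest in CAST/EiJ, which was measured on 1 array. Nts, the precursor of neurotensin and neuromedin N, ran from 7.78 in BXD98 to 8.64 in BXD51 (median 8.24).

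Of the granin-family genes, Vgf ran from 9.26 in AKR/J to 9.78 in BXD28 (median 9.57) and Scg2, the secretogranin II gene, from 9.87 in BXD73 to 10.38 in BXD13 (median 10.11). The AKR/J value of Vgf rests on a male pool at 8.97, the same striatum-high array, and a female pool at 9.55; without that array PWK/PhJ was lowest at 9.29. BXD13 was also highest for Scg2 without its striatum-high array, at 10.44. That value rests on the male BXD13 pool alone (10.40), whose header and label disagree. The strain values of all 12 probe sets overlapped between BXD, CXB and classical strains.

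**Figure D2:**
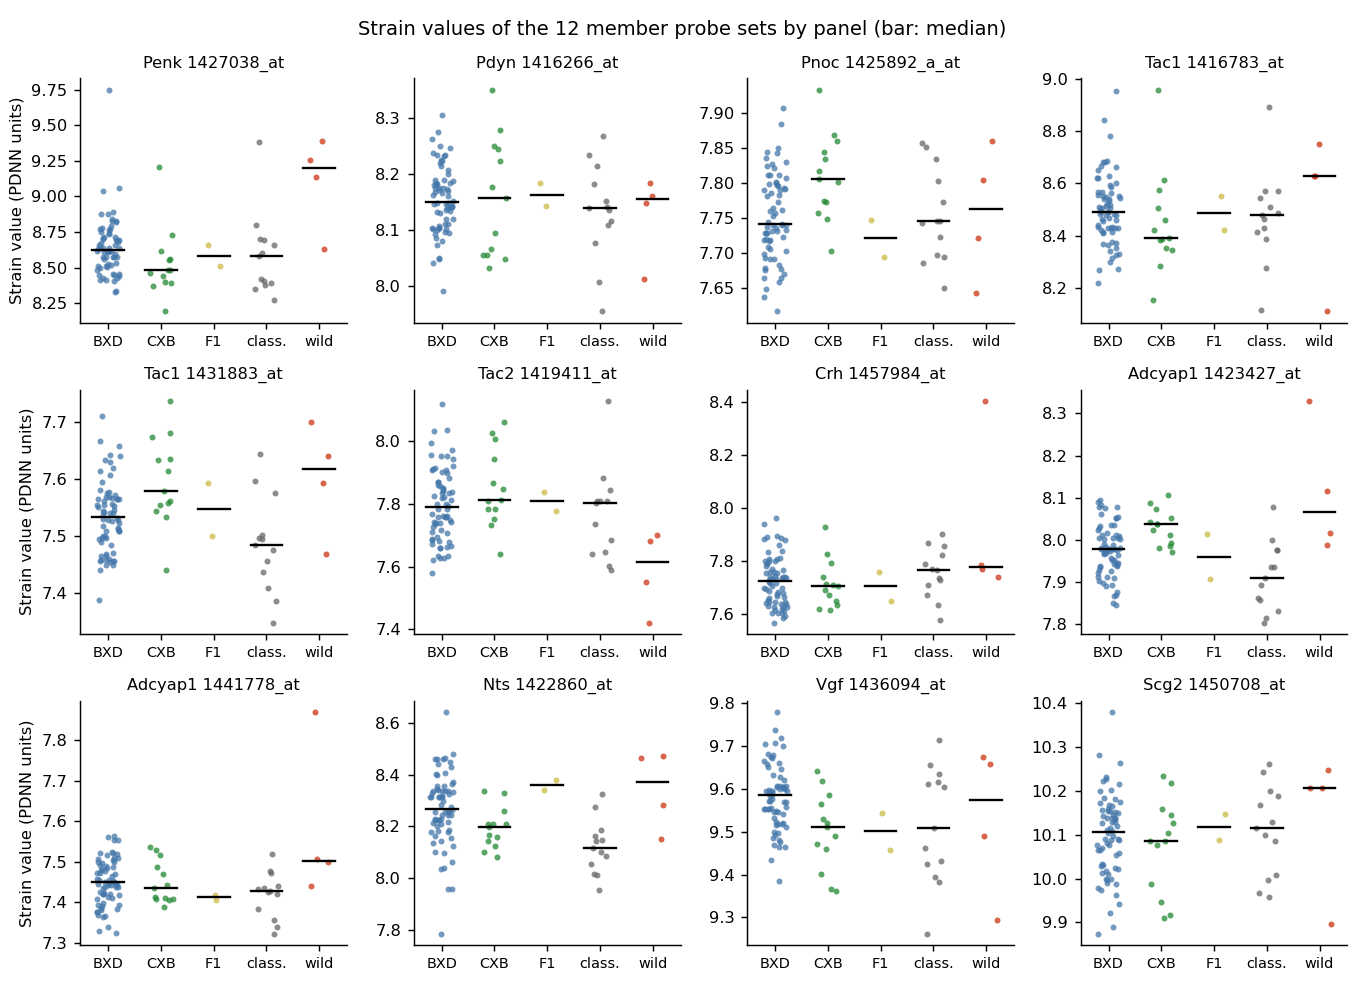
Strain values of the 12 probe sets in PDNN units (vertical axes, 1 scale per probe set) for the 68 BXD, 13 CXB, 2 F1, 13 classical inbred (class.) and 4 wild-derived (wild) strains; points are strains and bars are medians. BXD, CXB and classical strains overlap throughout, the wild-derived median of Penk is 9.20, and CAST/EiJ is the single high point of Crh at 8.41.

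The first question the design allows is whether precursor levels differ among the recombinant inbred strains more than between pools of a strain. In the BXD panel Nts and Tac2 did, by limma's moderated F-test with Benjamini-Hochberg adjustment over all probe sets. They are 2 of the 12 probe sets, where 6.95% of all probe sets passed, and 4 of the 12 had an unadjusted p under 0.05. Nts had an adjusted p of 0.000112 and an intraclass correlation of 0.46, meaning the share of the spread between arrays that lies between strains (median over all probe sets -0.017, where a value at or below 0 means that pools of a strain differed as much as pools of different strains).

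Nts was lowest in BXD98, with a female pool at 7.71 and a male pool at 7.79, followed by BXD70 (8.04 and 7.83) and BXD14 (8.14 and 8.11). It was highest in BXD51 (female 8.65, male 8.62), followed by BXD44 (8.32 and 8.52) and BXD2 (8.52 and 8.32). These strains were picked by the same values, so the distance between their pools is no further support. Both BXD14 arrays are among those whose header and label disagree. Both also carry batch number 7, which had the highest mean Nts (8.37), so the place of BXD14 rests on the batch adjustment. Before adjustment, the pools of BXD39 (7.87 and 8.09) and BXD48a (8.07 and 7.99) were lower. The strain values were 7.78 in BXD98, 7.96 in BXD70 and in BXD14, 8.46 in BXD2, 8.48 in BXD44 and 8.64 in BXD51, around a median of 8.27. Across the 62 BXD strains with a pool of each sex, female and male Nts levels had r = 0.47 and rho = 0.37. The Nts call was kept under all 35 alternative settings, with adjusted p from 3.49e-05 to 0.00441.

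Tac2 had an adjusted p of 0.00868 by the same limma F-test and an intraclass correlation of 0.35. It was lowest in BXD90, with pools at 7.57 and 7.71, and highest in BXD98, at 8.29 in the female and 7.87 in the male pool. BXD48 (8.08 and 7.91) and BXD87 (8.37 and 7.82) followed, so that the female pool was the higher one in each of the 3 highest strains. The female and male Tac2 levels of the 62 strains had r = 0.54 and rho = 0.69. BXD98 thus had the lowest Nts and the highest Tac2 of the panel, but the 2 genes had r = 0.04 across all BXD strains. The Tac2 call was lost in 3 of 34 settings, with adjusted p of 0.0573 on the deposited MAS5 values, 0.0630 on RMA values without mislabelled columns and 0.0675 without a batch term (range 0.000854 to 0.0675).

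**Figure D3:**
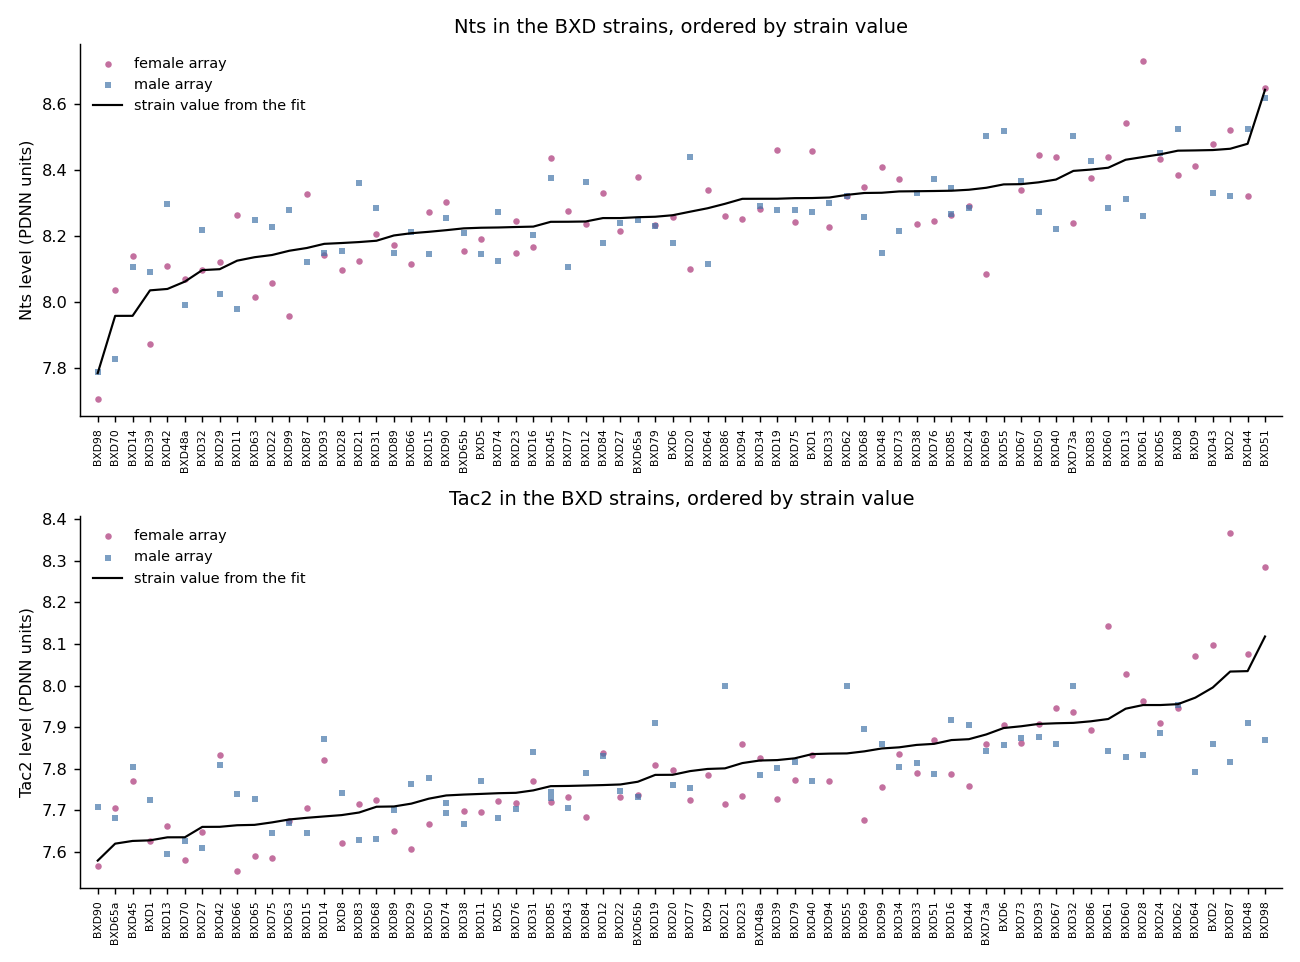
Nts (top) and Tac2 (bottom) levels in PDNN units in each BXD strain, ordered by strain value; circles are female and squares male pools and the line is the strain value after sex and batch were fitted. Nts runs from 7.78 in BXD98 to 8.64 in BXD51, and BXD98 is at the opposite end of the Tac2 order with 8.12.

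In the fit over all strains, the spread of Penk between pools included CXB6 (10.21 and 8.37) and AKR/J (10.22 and 8.42). Penk did not pass in the BXD panel with all arrays (adjusted p = 0.491, limma F-test, intraclass correlation 0.15). Without the 3 striatum-high arrays it did (adjusted p = 0.0140, intraclass correlation 0.33), as it did when the spread was taken from BXD arrays alone (adjusted p = 2.81e-06), and these were the 2 of 35 settings that gave the call (highest adjusted p 0.897). The share of all probe sets that pass with the spread of the BXD arrays alone is not given here. BXD13 then rested on its male pool at 9.47, which is 1 of the 7 arrays whose header and label disagree. With those arrays left out too, Penk did not pass (adjusted p = 0.182, limma F-test, intraclass correlation 0.23), while Nts and Tac2 did (2 of 12 probe sets against 6.63% of all). The next highest BXD strains were BXD2 with pools at 9.23 and 8.86, and BXD28 with pools at 9.33 and 8.72; female and male pools had r = 0.56 and rho = 0.42 with BXD13 included. Without the 3 arrays Nts (adjusted p = 7.57e-05) and Tac2 (adjusted p = 0.00186) stayed past the threshold, giving 3 of 12 probe sets against 7.08% of all.

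The other BXD values were smaller. Scg2 had an intraclass correlation of 0.27 and an adjusted p of 0.0710, and it passed in 8 of 35 settings (adjusted p 1.05e-05 to 0.287). Of 20 arrays left out one at a time, the female A/J pool (adjusted p = 0.0445) and 1 male C57BL/6J pool (0.0380) brought Scg2 past the threshold. Crh had 0.23 and 0.180, passing in 2 of 34 settings (adjusted p 0.00651 to 0.754). Pdyn, Pnoc, Vgf and the second Tac1 probe set had intraclass correlations below 0, and the female and male pools of Pdyn had r = -0.06. BXD2 ranked among the 4 highest strains for Penk, Tac1 (first probe set), Tac2, Crh, Nts and Scg2. By the second Tac1 probe set it was 44th from the highest, at 7.51.

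The BXD parents were compared next. None of the 12 probe sets differed between DBA/2J (2 arrays) and C57BL/6J (3 arrays) by limma, where 7.24% of all probe sets did, and none had an unadjusted p under 0.05. The 12 differences ran from -0.13 for Nts to 0.04 for Tac2, with standard errors of 0.067 to 0.23, so that differences of about that size could not be resolved. Nts was at 8.15 and 8.30 in DBA/2J and at 8.37, 8.23 and 8.21 in C57BL/6J, so the parents overlapped (difference -0.13 ± 0.11, SE; adjusted p = 0.615). Tac2 was at 8.08 and 7.83 in DBA/2J and at 7.77, 7.87 and 7.86 in C57BL/6J (0.04 ± 0.10, SE; adjusted p = 0.923). Of the 68 BXD strains, 11 lay below both parental Nts values, 24 between them and 33 above them. For Tac2, 45 lay below, 6 between and 17 above. With 5 arrays behind the parental values, how far these counts depend on array error was not tested.

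In the CXB panel no precursor passed limma's F-test, where 4.2% of all probe sets did, and 5 of 12 had an unadjusted p under 0.05. Tac2 came closest (adjusted p = 0.0539, intraclass correlation 0.46), followed by Tac1 (0.0638 and 0.44), Scg2 (0.103 and 0.42) and Pdyn (0.113 and 0.41), against a median intraclass correlation of 0.0928 over all probe sets. Tac2 ran from 7.64 in CXB9 to 8.06 in CXB7, and Tac1 was lowest in CXB9, at 8.06 in the female and 8.08 in the male pool. CXB9 was also lowest for Penk, at 8.10 and 8.29. Without the 3 striatum-high arrays, 1 of which is CXB6, Tac2 passed (adjusted p = 0.0357, 1 of 12 probe sets against 4.25% of all) and the other 11 did not. Leaving out the male CXB7 pool (adjusted p = 0.0152), the male BXD32 pool (0.0469) or the female BXD64 pool (0.0451) had the same effect on Tac2, whose adjusted p ran from 0.0127 to 0.750 over 34 settings. Nts, which differed among BXD strains, had an intraclass correlation of -0.04 in the CXB panel (adjusted p = 0.721); the difference between the panels was not tested. Between the CXB parents, BALB/cByJ with 1 array and C57BL/6ByJ with 2, none of the 12 passed, against 1.19% of all probe sets, and Adcyap1 (first probe set) had the only unadjusted p under 0.05 (-0.20 ± 0.09, SE; adjusted p = 0.440).

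Over all 100 strains, 7 of the 12 probe sets differed by limma's F-test, beside 21.5% of all probe sets. Nts had an adjusted p of 1.43e-05 and Tac2 of 4.00e-05, and Crh (0.00335), Scg2 (0.00432), Penk (0.00632) and the first Adcyap1 probe set (0.0189) followed. Tac1 was the closest to the threshold (adjusted p = 0.0489) and lost the call in 24 of 34 settings, among them 17 of the 20 arrays left out singly (adjusted p 0.00797 to 0.228). Penk, Nts, Tac2 and Scg2 kept it in all settings tried, Crh in 31 of 33 (adjusted p 0.000116 to 0.0950) and Adcyap1 in 28 of 33 (0.00423 to 0.521). Without the 3 striatum-high arrays 8 of 12 passed, against 22% of all, Vgf being the addition (adjusted p = 0.0403), and the adjusted p of Penk became 5.02e-06. The lowest strains over all panels were PWK/PhJ for Tac2 and A/J and CXB9 for Penk; the highest for Nts was BXD51.

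The wild-derived strains were compared with the classical inbred strains, with strains as replicates. The test took strains as independent and gave each strain value the same weight, although strains differed in their number of arrays. Relatedness among strains was not modelled in either group, and some share a strain name, as BALB/cJ and BALB/cByJ do. The SEs and p-values of this comparison therefore hold only as far as the strains are independent. Penk was at 9.13 in the CAST/EiJ pool, 9.61 and 9.30 in PWD/PhJ, 9.21 and 8.94 in PWK/PhJ, and 8.68 and 8.47 in WSB/EiJ. Apart from the male AKR/J pool at 10.22, the classical arrays did not exceed 9.02, a male 129S1/SvImJ pool, and WSB/EiJ lay inside the classical range. By strain value, CAST/EiJ (9.25) and PWK/PhJ (9.14) lay above every classical strain except AKR/J (9.38), and PWD/PhJ (9.39) lay above all of them. The difference in strain values was 0.52 ± 0.16 (SE, 4 against 13 strains) with an adjusted p of 0.0683 by limma. Without the striatum-high arrays it was 0.57 ± 0.11 with an adjusted p of 0.00988, where 3.48% of all probe sets passed. Leaving out AKR/J whole gave 0.58 ± 0.12 (adjusted p = 0.0155), and leaving out WSB/EiJ 0.67 ± 0.16 (adjusted p = 0.0177). Leaving out PWD/PhJ gave 0.42 ± 0.17 (adjusted p = 0.245), and over 31 settings the adjusted p ran from 0.00988 to 0.245. The striatal markers and the RNA quality of the same arrays are given beside this difference. Of the 8 striatal markers 0 differed by limma between wild-derived and classical strains, 4 having an unadjusted p under 0.05, with 4 differences above 0 and 4 below (-0.22 for Ppp1r1b to 0.14 for Rxrg; -0.02 ± 0.06 for Drd1 and -0.06 ± 0.07 for Gpr6). Their mean standardised level was -0.15 to 0.76 on the wild-derived arrays and -0.96 to 0.64 on the 26 classical arrays other than the male AKR/J pool. The highest of the wild-derived arrays on this list was the male PWD/PhJ pool with Penk at 9.61, which is also an array with a header mismatch. The 3' to 5' ratio of beta-actin was 1.89 to 4.65 on the CAST/EiJ, PWD/PhJ and PWK/PhJ arrays, 1.32 and 1.44 on those of WSB/EiJ, and 1.13 to 3.71 (median 1.65) on the 26 classical arrays. The share of probe sets marked as outliers was 0.07 to 0.15 in the first 3 strains, 0.02 and 0.04 in WSB/EiJ and 0.01 to 0.19 (median 0.04) in the classical arrays. With that ratio and the present share as covariates the Penk difference was 0.58 ± 0.17 (adjusted p = 0.0687), and without outlier arrays 0.51 ± 0.15 (adjusted p = 0.0994). Without both the striatum-high arrays and those with a header mismatch it was 0.56 ± 0.10 (adjusted p = 0.00843). The part of striatal tissue and of RNA quality in this difference was not tested beyond these values.

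Adcyap1 was the only precursor past the threshold in this comparison with all arrays, 1 of 12 probe sets where 3.95% of all passed, and 6 of 12 had an unadjusted p under 0.05. Its first probe set, the one that passed, was at 8.33 in CAST/EiJ, 8.20 and 8.08 in PWD/PhJ, 7.98 and 8.12 in PWK/PhJ and 7.94 and 8.11 in WSB/EiJ. The classical strain values reached 8.08 in KK/HIJ, so that PWK/PhJ and WSB/EiJ lay inside their range. The difference was 0.20 ± 0.05 (SE; adjusted p = 0.0497, limma), and it lost the call in 20 of 30 settings (adjusted p 0.0207 to 0.442), one of them without the striatum-high arrays (0.0514). Without CAST/EiJ it was 0.13 ± 0.05 (adjusted p = 0.194), and without PWD/PhJ 0.20 ± 0.06 (adjusted p = 0.159). The CAST/EiJ array carried a share of 0.14 of probe sets marked as outliers in the labels, and without all 21 arrays at a share of 0.1 or more the difference was 0.11 ± 0.06 (adjusted p = 0.442). The second Adcyap1 probe set differed by 0.16 ± 0.06 in the same direction (adjusted p = 0.0921).

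Nts was also on the higher side in wild-derived strains, at 8.46 in CAST/EiJ, 8.57 and 8.51 in PWD/PhJ, 8.11 and 8.22 in PWK/PhJ and 8.26 and 8.34 in WSB/EiJ, against classical strain values of 7.96 in C3H/HeJ to 8.33 in C57BL/6ByJ. The difference of 0.22 ± 0.06 missed the threshold (adjusted p = 0.0548, limma; 0.0319 to 0.236 over 31 settings), and PWK/PhJ and WSB/EiJ overlapped the classical strains. Leaving out PWK/PhJ, C57BL/6J, C57BL/6ByJ or KK/HIJ brought Nts past it (adjusted p 0.0319, 0.0378, 0.0334 and 0.0469). Tac2 was lower by 0.18 ± 0.08 (adjusted p = 0.148), with PWK/PhJ and PWD/PhJ the lowest of all 100 strains. Crh differed by 0.17 ± 0.09 (adjusted p = 0.231), a difference carried by CAST/EiJ: the other wild-derived arrays lay at 7.73 to 7.95 and the CAST/EiJ array at 8.43. Pdyn, Pnoc, Vgf, Scg2 and the first Tac1 probe set differed by at most 0.06.

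**Figure D4:**
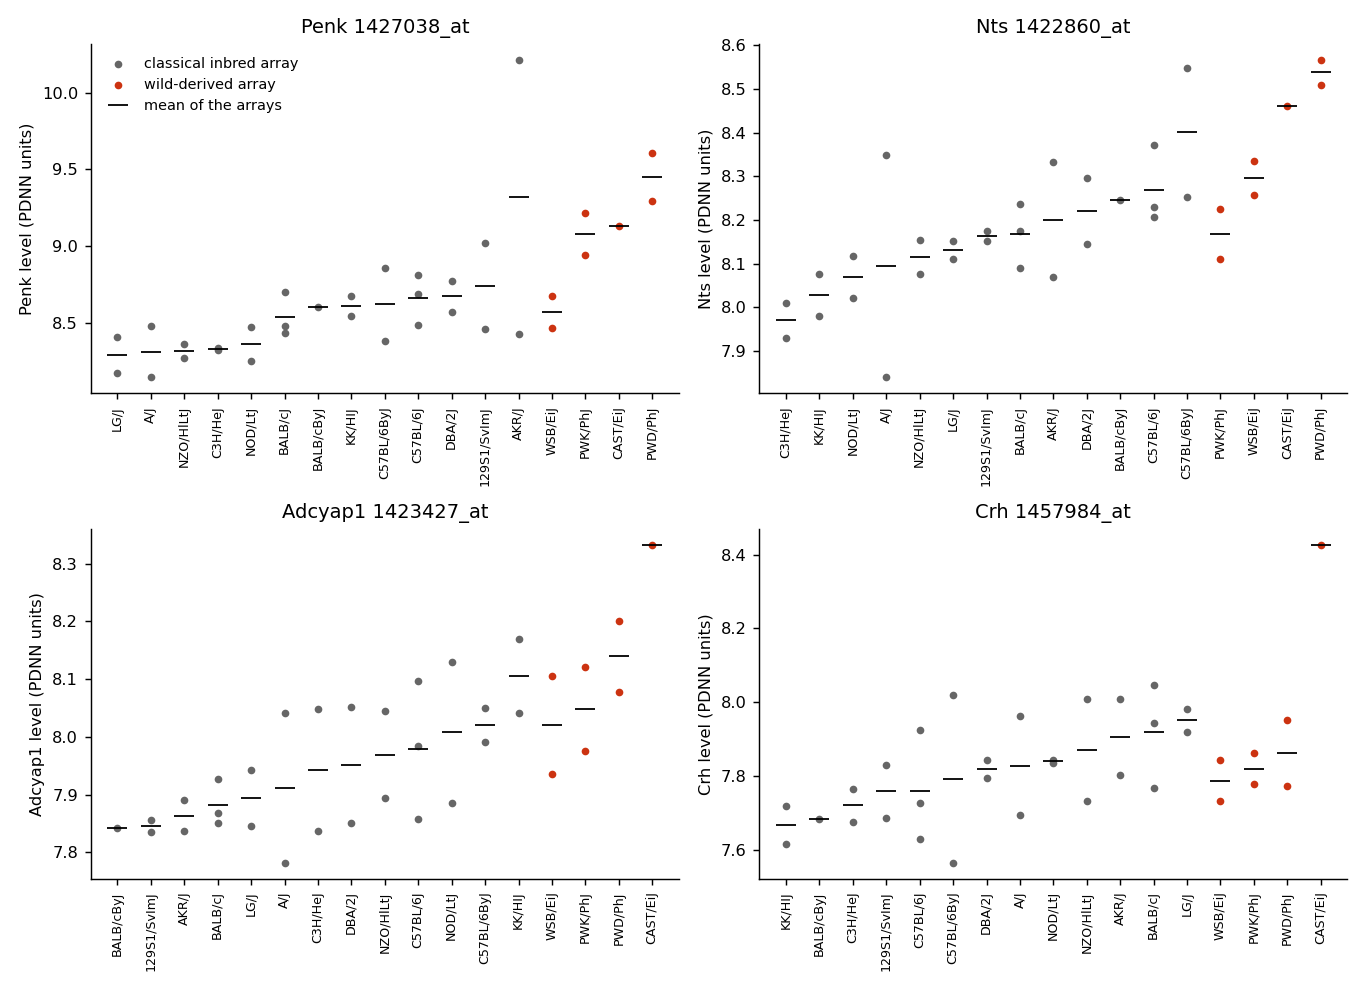
Levels of Penk, Nts, Adcyap1 (first probe set) and Crh in PDNN units on each array of the 13 classical (grey) and 4 wild-derived (red) inbred strains, ordered by mean within each group; short lines are means of the arrays of a strain, without adjustment. CAST/EiJ has 1 array, and the male AKR/J pool is the high grey point of Penk at 10.22.

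Sex, age and batch number were also tested. No precursor differed between male and female pools by limma, where 0.115% of all probe sets did, and none had an unadjusted p under 0.05. The difference farthest from 0, in Penk, was 0.04 ± 0.04, with the male pool higher in 49 of 87 strains. No sex difference differed between the BXD and CXB panels either, where 0.00222% of all probe sets passed and 0 of 12 had an unadjusted p under 0.05. With age, 0 of 12 passed against 0.00222% of all, and 3 had an unadjusted p under 0.05: the slopes per 10 days were -0.016 ± 0.007 for Nts, -0.013 ± 0.006 for Scg2 and 0.013 ± 0.006 for Vgf (SE; adjusted p = 1.00 for each, limma). The batch number of the labels went with 9 of the 12 probe sets, beside 77.1% of all, and not with Penk, Pdyn and Vgf. Over the 7 batch numbers mean Tac1 ran from 8.38 to 8.63, mean Crh from 7.66 to 7.82 and mean Nts from 8.18 to 8.37. Since batch number was fitted with strain, these shifts are removed from the strain values.

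Strain values of the precursors were also set against each other across the 68 BXD strains. Of the 45 pairs of genes, 13 had a Pearson correlation past an adjusted p of 0.05 in a two-sided permutation test with 100000 resamples, all of them positive; 32 did not pass, and 8 of the 45 had an r below 0. Such correlations were common on these arrays: the lowest r among the 13 pairs, 0.30, was reached or passed in absolute size by 37.4% of all pairs of annotated genes, and with a positive sign by 19.7%, against 28.9% of the precursor pairs. The count of 13 is therefore near the background and no result about the precursors. The points share the same arrays, so a pair can also share array error. The highest was Tac1 with Crh (r = 0.60, rho = 0.55, adjusted p = 0.000225, from p = 1e-05 each, the smallest the resampling can give). It was 0.56 without the 2 strains farthest in Tac1 and 0.47 to 0.96 within each of the 7 batch numbers. Crh with Adcyap1 had r = 0.50 and rho = 0.46 (permutation p = 4e-05 and 7e-05, adjusted p = 0.0006; 0.43 without the 2 farthest strains, and positive in 7 of 7 batch numbers). Tac1 with Tac2 had r = 0.39 and rho = 0.45 (permutation p = 0.00084 and 0.00015, adjusted p = 0.00945; positive in 6 of 7 batch numbers), and Tac1 with Nts r = 0.36 and rho = 0.30 (permutation p = 0.0028 and 0.0145, adjusted p = 0.0140).

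Penk varied with Scg2 (r = 0.53, rho = 0.40, permutation p = 1e-05 and 0.00074, adjusted p = 0.000225). It was 0.53 without the striatum-high arrays but 0.37 without the 2 strains farthest in Penk, and it ran from -0.08 to 0.90 within batch numbers. Penk with Tac1 rested on BXD13: r = 0.41 and rho = 0.19 (permutation p = 0.00128 and 0.124, adjusted p = 0.0109) became r = 0.18 without the striatum-high arrays (adjusted p = 0.305) and 0.11 without the 2 farthest strains. Tac1 with Scg2, Pnoc with Vgf and Pnoc with Scg2 also lost the call without those arrays, while Crh with Vgf gained it (r = 0.31, adjusted p = 0.0459, from 0.0519), which gave 10 pairs. The Pdyn pair past the threshold was with Adcyap1 (r = 0.37, rho = 0.40, permutation p = 0.00145 and 0.00067, adjusted p = 0.0109), called in 5 of 10 alternative settings; on RMA and MAS5 values its r turned to -0.13 and -0.18. Of all pairs, Tac1 with Crh, Penk with Scg2, Crh with Adcyap1 and Tac1 with Adcyap1 were called in all 10 alternative settings.

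Beside the members, the means of 11 marker lists were set against each precursor in the same strains, 110 relations of which 26 passed the adjusted threshold, and 21 without the striatum-high arrays. The lowest absolute r among the 26, 0.32, was reached by 23.6% of the 110 relations and by 29.4% of those of 18074 other genes with the same lists, so the count stands below the background. By list, the share of other genes at that size was 35.9% for interneurons, 38.6% for dentate, 56.4% for pyramidal neurons, 24.2% for thalamus, 54.2% for hypothalamus with septum and 3.12% for striatum, and the single relations below are descriptions beside these shares. The interneuron list of 12 genes went with Tac1 (r = 0.55, rho = 0.56, permutation p = 1e-05 each), Tac2 (0.49 and 0.52, permutation p = 3e-05 and 2e-05), Nts (0.45 and 0.43, permutation p = 0.00014 and 0.00033), Crh (0.39 and 0.34, permutation p = 0.00101 and 0.00445), Pnoc and Scg2. The list holds the peptide precursors Sst, Npy, Vip, Cck and Cort beside Gad1, Gad2, Slc32a1, Pvalb, Lhx6, Reln and Calb2. Calb2 is also in the thalamus list. These relations are thus in part between peptide genes, and the list without its peptide genes was not tested. Within batch numbers the correlation with the interneuron list was positive in 7 of 7 for Tac1 (0.23 to 0.78), Tac2 (0.10 to 0.70), Nts (0.21 to 0.70) and Crh (0.03 to 0.64). These 4 and Pnoc (adjusted p = 0.00636) also passed without the striatum-high arrays, and Scg2 did not (adjusted p = 0.177, from 0.0379). Scg2 went with the dentate (r = 0.65, rho = 0.66) and pyramidal lists (r = 0.57, rho = 0.59; permutation p = 1e-05 for each), and against thalamus (r = -0.38, rho = -0.30) and hypothalamus with septum (r = -0.40, rho = -0.45). With the striatal list it had r = -0.06 and rho = -0.38, and without the striatum-high arrays r = -0.50 (adjusted p = 0.00055 by permutation), the 1 relation gained there against 6 lost. Within batch numbers its correlation with the dentate list was 0.06 to 0.88 and with the pyramidal list 0.43 to 0.75. Over 10 alternative settings Scg2 was called with the dentate list in 10 and with the pyramidal list in 7. With thalamus it was called in 6 (r up to -0.11), and with hypothalamus and septum in 6 (r up to 0.17). Adcyap1 showed the opposite signs, with r = -0.44 for dentate, -0.55 for pyramidal (permutation p = 1e-05; -0.83 to -0.27 within batch numbers) and 0.37 for thalamus. These Adcyap1 relations were called in 8, 7 and 6 of 10 alternative settings, with r as near 0 as -0.24, -0.14 and 0.08. Pdyn went with thalamus (r = 0.45, rho = 0.56) and with hypothalamus and septum (r = 0.44, rho = 0.42; both adjusted p = 0.00206 by permutation), positive in 6 of 7 and 7 of 7 batch numbers, but each turned negative in 3 of 10 alternative settings (lowest r -0.13 and -0.14). Penk against the striatal list had r = 0.48 but rho = 0.05 (permutation p = 0.00502 and 0.675), and r was 0.06 without the 2 farthest strains and -0.04 without the striatum-high arrays. Vgf passed with no list. What share of a precursor's spread these lists account for was not tested.

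**Figure D5:**
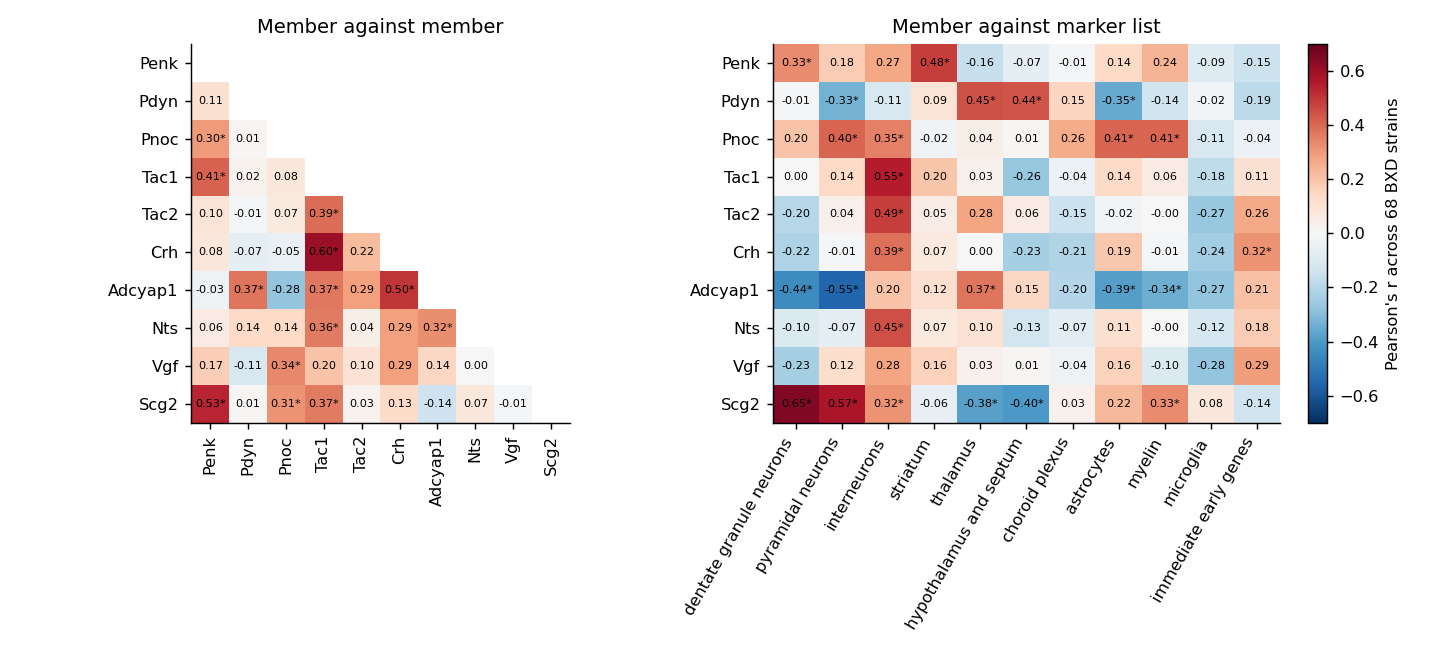
Pearson correlations across 68 BXD strain values between the 10 precursors (left) and between precursors and 11 marker lists (right); colour gives r from blue (negative) to red (positive) and an asterisk marks an adjusted permutation p under 0.05. Tac1 with Crh (0.60) and Scg2 with the dentate list (0.65) are the highest cells, and the Penk and striatum cell (0.48) becomes -0.04 without the 3 striatum-high arrays.

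The genes whose BXD strain values were most like those of Nts were Cntn4 (r = 0.65), Cntn6 (0.61), both contactin cell adhesion genes, and Lypd6 (0.59), where the median absolute correlation of Nts with all probe sets was 0.151. For Tac2 they were Resp18 (0.49), a protein of neuroendocrine secretory vesicles, Rnf227 (0.49) and Inpp1 (0.47), against a median of 0.0957. These 6 kept correlations of 0.47 to 0.63 without the striatum-high arrays. For Penk, looked up after its values were seen, they were Drd1 (0.74), Slc35d3 (0.60) and Acvr1c (0.58). These became 0.60, 0.22 and 0.50 without those arrays. The Drd1 probe set here is not the one used in the striatal list and for the Drd1 levels given earlier. Penk against the striatal list had r = -0.04 without those arrays.

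Receptors and binding proteins of the member peptides differed among BXD strains in 5 of 16 cases measured, beside 6.95% of all probe sets, with a median intraclass correlation of 0.0596 beside -0.017 for all. Genes of the lists in this paragraph were taken at their probe set of highest mean, while the shares beside them cover every probe set. The PACAP receptor Adcyap1r1 was among them (0.54, adjusted p = 1.21e-06, limma F-test), and so were both neurotensin receptors, Ntsr2 (0.43, 0.000364) and Ntsr1 (0.36, 0.00715), the nociceptin receptor Oprl1 (0.35, 0.00802) and the CRH-binding protein Crhbp (0.32, 0.0198). Between the BXD parents 2 of the 16 were called, beside 7.24% of all probe sets: Ntsr2 was lower in DBA/2J by 0.38 ± 0.10 PDNN units (adjusted p = 0.00498) and Adcyap1r1 by 0.23 ± 0.08 (adjusted p = 0.0424). Of 6 genes that process precursors, Pam, the amidating enzyme (0.93), and Scg5, the chaperone of a convertase (0.90), differed among BXD strains, and both were higher in DBA/2J, by 0.79 ± 0.09 and 0.57 ± 0.11. Of 17 other peptide precursors, Vip (0.48, adjusted p = 3.4e-05) and Grp (0.32, adjusted p = 0.0194) differed in the BXD panel, a share near the background. In the CXB panel Avp, Nmb, Pmch and Grp did, 4 of 17 beside 4.2% of all, with 1 of the 16 receptors, Adcyap1r1, and 1 of the 6 processing genes, Scg5. Avp and Pmch, at mean levels of 7.78 and 7.92, are also markers in the hypothalamus and septum list. The part of neighbouring tissue in their differences was not tested. None of these receptors, processing genes or other precursors passed between wild-derived and classical strains. The lists were chosen with earlier results of these data known, so their shares beside the background are descriptions and no independent test.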

How the data were processed

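Pooled hippocampal RNA was measured on 201 arrays of 100 strains. Per the labels, the authors kept these arrays after quality control and summarised each probe set with the PDNN model; the deposited scores are on a log-like scale with a stated SD of 2 that the values do not show. No software version is given in those labels. Deposited RMA and MAS5 scores served as alternatives; 4 RMA columns went against their labels. The members and all gene lists were chosen with earlier results of these data known.

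Scores were fitted in limma 3.58.1 (R 4.3.3) with strain, sex and batch number, after 1 technical duplicate (B6D2F1, male) was averaged with its partner and the mixed-sex BXD9 pool left out: 199 columns, 107 terms, 92 residual degrees of freedom. The Benjamini-Hochberg adjustment ran over 45037 probe sets, with a threshold of 0.05, 64 control probe sets being left out. Wild-derived and classical strains were compared on their strain values. Correlations used BXD strain values and 100000 permutations (numpy 2.4.6), with the probe set of highest mean for a gene. Genes most like a member could be represented by another of their probe sets, as Drd1 was. Named genes are the members, at most 4 called genes per list by adjusted p, the 3 genes most like a called member, and the strains with the lowest and highest values; Crhbp, the Penk neighbours and other strains were chosen once their values had been seen. Scripts were tested on simulated data. Alternatives were other summaries, quantile normalization, a filter at a mean of 8, no batch term, age, animal source or RNA quality as covariates, and leaving out outlier arrays, pools older than 100 days, mismatched headers, the 3 striatum-high arrays, and single arrays or strains; RNA quality, the panel's own spread, the RMA set without its 4 columns, the striatum-high arrays and these with the mismatched headers were chosen after seeing the data. The number of arrays limits the precision.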

Additional observations from a re-analysis of the deposited data

Results flagged for a closer look

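In 3 of the 12 probe sets, 1 of the 4 wild-derived strains stood apart from the other 3 by Dixon's criterion, which sets the gap to the nearest strain against the whole range. Crh had a strain value of 8.41 in CAST/EiJ, with the other wild-derived strains at 7.74 to 7.79, a gap of 0.930 of the range. Adcyap1 by its second probe set was at 7.87 in CAST/EiJ, a gap of 0.845, and by its first probe set CAST/EiJ was also highest but did not pass (0.628). CAST/EiJ was measured on 1 array. Scg2 was at 9.90 in WSB/EiJ, below the other 3 strains at 10.21 to 10.25, a gap of 0.881, and both WSB/EiJ pools enter that value. Chance flags about 1 in 20 groups.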

How the results depend on the processing

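Counts of called probe sets among the 12 moved by over 1.5 times in these settings. The share of all probe sets called can move with a setting too and is not given beside these counts. They therefore describe the settings and are no result about the precursors. In the BXD panel (2 called) the count was 1 with probe sets of mean 8 or more alone or without a batch term, 6 with the spread of the panel alone, and 4 with the ratio of 3' to 5' signal and the present share as covariates; leaving out single arrays gave 2 to 3. In the CXB panel (0 called) it was 2 on RMA values, with or without the 4 mislabelled columns, 1 on MAS5 values, 3 with quantile normalization, 1 at a mean of 8 or more, 3 without a batch term, 3 without outlier arrays, 1 without header mismatches, 1 with animal source as a covariate, 1 without the striatum-high arrays, with or without the header mismatches, 3 with the RNA quality covariates, and 0 to 1 without single arrays. Over all strains (7 called) it was 4 at a mean of 8 or more, where fewer probe sets are tested, and 6 to 7 without single arrays. Between wild-derived and classical strains (1 called) it was 0 on MAS5 values, on RMA values without mislabelled columns, with quantile normalization, at a mean of 8 or more, without outlier arrays, without older pools, with animal source or with RNA quality as covariates, 2 without header mismatches, 3 without these and the striatum-high arrays, and 0 to 3 without single strains. Batch number (9 called) gave 3 on MAS5 values, 3 at a mean of 8 or more and 9 to 10 without single arrays. The 26 relations with marker lists became 12 on RMA values, 9 on them without mislabelled columns, 14 on MAS5 values and 10 with quantile normalization. The parental, sex, age and sex by panel counts were 0 in every setting tried, and the 13 pairs stayed between 9 and 17. No called difference between groups reversed. Of the called correlations, 1 pair, Pdyn with Adcyap1, and 8 of the 26 list relations had an r of the other sign in at least 1 setting. The cause of these shifts was not tested except where fewer probe sets were tested. No paired analysis was possible because replicate numbers were given in accession order; female and male pools were compared within strains through the strain term.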
